A study of Mus musculus with 48 samples.

Results

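Chemokines and their receptors were followed across the livers of 6 genotype groups of western diet-fed mice. The members were the protein-coding mouse genes named Ccl, Cxcl, Ccr or Cxcr with a number, counted on the coding strand, with at least 10 reads summed over the 48 livers. Of 57 such genes in the files, 50 met the minimum: 21 CC ligands, 12 CXC ligands, 11 CC receptors and 6 CXC receptors, out of 55416 genes in all. The 7 below the minimum were Ccl21b, Ccl21d, Ccl21e, Ccl21f, Ccl26, Ccl27b and Cxcl15. A filter on low counts, applied to every gene in the same way, left 15711 genes for testing, and 34 of the 50 members were among them.

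Bulk RNA was sequenced from 48 livers of C57Bl/6J mice, 8 in each group. The DN:WT, DN:HET and DN:HOM mice were male littermates from heterozygous crosses that carried 0, 1 or 2 copies of a CRISPR knock-in allele of Nr1h3, which puts the W441R change into LXRα, the oxysterol-activated liver X receptor, and makes it dominant-negative (DN). KO:WT, KO:HET and KO:HOM mice came from heterozygous crosses of an LXRα knockout line at another institute, derived from a mixed Sv129/C57Bl/6 stock that was backcrossed to C57BL/6. Every mouse, controls included, ate a western diet for 8 weeks from about 8 weeks of age, so no group shows the liver without that diet. Both alleles are germline and present in every cell type, and the knock-in line was bred from an edited founder.

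Levels are given as CPM, the reads of a gene per 1000000 reads on genes after TMM scaling. The livers held 5332897 to 16961379 reads on genes, with 2 of the 48 below 10000000 (KO:HET animal 3 and KO:HOM animal 17). Nr1h3, the targeted gene, ran at 81.5 to 108 CPM in KO:WT, 48.3 to 65.4 CPM in KO:HET and 25.3 to 31.1 CPM in KO:HOM. In the knock-in line it ran at 82.1 to 96.9 CPM in DN:WT, 86.3 to 99.8 CPM in DN:HET and 68.5 to 77.4 CPM in DN:HOM, where it was lower than in DN:WT with no overlap. The library labelled DN:WT animal 10 and the library labelled DN:HOM animal 12 went against their labels: for each of the 28 members that differed between DN:HOM and DN:WT, the first lay nearer the mean of DN:HOM and the second nearer that of DN:WT on the scale of log2(CPM + 0.1). Ccl2, for example, stood at 21.4 CPM in the first and 0.35 CPM in the second. Neither library is in the values deposited with the article for 1 liver panel, and they were left out here, which leaves 46 livers (7 DN:WT, 7 DN:HOM and 8 in each other group). Calls that were lost with all 48 are given with the adjusted p or the count of that fit. Hepatocyte markers (Alb, Apoa1, Ttr, Serpina1c, Cyp2e1) were read in every group, which is the labelled tissue.

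Chemokines are small secreted proteins that guide leukocytes along concentration gradients, by way of G-protein-coupled receptors on the moving cell. CC ligands such as Ccl2 mainly draw monocytes, the CXC ligands of the Cxcl1 group draw neutrophils, and Cxcl9 and Cxcl10, which interferon-γ induces, draw activated T cells. In liver they are made by hepatocytes, sinusoidal endothelium, stellate cells and macrophages, while the receptors are read mainly from leukocytes. In bulk tissue more cells of a type cannot be told apart from more RNA per cell.

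Promoter stretches are shown for 5 ligands whose levels carry the results below, because they hold letters that resemble the binding sites of NF-κB and of interferon-responsive factors. They are 250 bases up to the annotated start of the main transcript, read 5′ to 3′ on the gene's strand from GRCm39. Cxcl5 has 199, because its stretch stops before an annotated exon of Cxcl5 itself. Capitals mark a match to GGGANNTTCC or to GAAANNGAAA on either strand.
Cxcl1 (chr5:91038844-91039093, plus strand): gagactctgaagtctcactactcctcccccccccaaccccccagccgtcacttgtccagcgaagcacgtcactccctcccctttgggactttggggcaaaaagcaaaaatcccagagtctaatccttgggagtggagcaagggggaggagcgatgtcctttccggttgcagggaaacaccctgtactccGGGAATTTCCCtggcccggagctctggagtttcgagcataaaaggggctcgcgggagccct
Cxcl2 (chr5:91051480-91051729, plus strand): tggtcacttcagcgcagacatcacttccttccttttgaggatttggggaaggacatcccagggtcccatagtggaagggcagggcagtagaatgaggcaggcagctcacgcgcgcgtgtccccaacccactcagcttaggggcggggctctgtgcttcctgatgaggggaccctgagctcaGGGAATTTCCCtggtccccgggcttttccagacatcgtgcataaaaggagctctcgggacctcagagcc
Cxcl5 (chr5:90906987-90907185, plus strand): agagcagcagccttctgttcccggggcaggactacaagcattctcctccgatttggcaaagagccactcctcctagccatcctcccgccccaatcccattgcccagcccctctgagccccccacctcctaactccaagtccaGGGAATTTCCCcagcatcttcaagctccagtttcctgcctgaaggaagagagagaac
Cxcl10 (chr5:92496749-92496998, minus strand): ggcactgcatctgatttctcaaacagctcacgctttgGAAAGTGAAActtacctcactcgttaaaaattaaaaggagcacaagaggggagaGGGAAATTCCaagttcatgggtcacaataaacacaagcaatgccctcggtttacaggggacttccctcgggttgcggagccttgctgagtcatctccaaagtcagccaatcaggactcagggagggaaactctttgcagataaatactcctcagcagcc
Ccl5 (chr11:83421346-83421595, minus strand): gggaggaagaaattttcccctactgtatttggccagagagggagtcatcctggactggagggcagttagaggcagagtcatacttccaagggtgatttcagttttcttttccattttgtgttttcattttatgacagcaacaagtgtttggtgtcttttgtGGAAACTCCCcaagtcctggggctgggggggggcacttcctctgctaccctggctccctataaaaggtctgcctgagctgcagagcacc
The neutrophil ligands Cxcl1, Cxcl2 and Cxcl5 hold the same run, GGGAATTTCCC, at 61, 69 and 108 bases before the start, where a match on each strand overlaps. Cxcl10 holds GAAAGTGAAA at 213 bases and GGGAAATTCC at 159 bases before its start. Ccl5 holds GGAAACTCCC, a match on the other strand, at 89 bases. Of 21627 promoters of the same length in the annotation, 283 (1.31%) held GGGANNTTCC and 717 (3.32%) held GAAANNGAAA, against 10 (20%) and 3 (6%) of the 50 members. Another pattern, TTCNNNGAA, stood in 7.73% of all promoters and in 7 members (14%). These are letter matches in a fixed window and were not tested for binding.

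In wild-type livers the family was dominated by a few ligands. Per kilobase of transcript, Cxcl12, the ligand of Cxcr4 that retains leukocytes in tissue, had a mean level of 47.5 CPM per kb in DN:WT and 56.1 in KO:WT. The next levels were those of Ccl25 (12.7 and 10.8 CPM per kb), Ccl27a (11.1 and 10.02), Cxcl1 (9.45 and 10.8) and Ccl9 (9.43 and 13.6), followed by Cxcl9 in both. Lengths are those of the main transcript, whereas reads were counted over all annotated exons of a gene. These lengths were 902 and 12537 bases for Ccl25 and 913 and 2700 for Ccl27a. The rank of both therefore rests on the length chosen. Receptor reads were scarce. All CXC receptors together summed to 1.82 to 3.14 CPM (median 2.07) in DN:WT and 1.19 to 3.36 CPM (median 2.59) in KO:WT.

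Rises outnumbered falls in homozygous livers of both lines. A member can pass the filter through a group where it is high, as Ccr3 could with 0 reads over KO:WT and 308 over KO:HOM. The share of the tested members that rose is therefore not read as a result. In DN:HOM against DN:WT, 23 of the 50 members rose and 5 fell (edgeR's quasi-likelihood test, Benjamini-Hochberg adjusted p under 0.05, 34 tested), where 59.1% of all genes tested were called, 29.1% higher and 30% lower. In KO:HOM against KO:WT, 24 rose and 1 fell, where 19.4% of all genes were called, 11.5% higher and 7.87% lower. By family, the rises in DN:HOM were 10 of 21 CC ligands, 5 of 12 CXC ligands, 5 of 11 CC receptors and 3 of 6 CXC receptors, and those in KO:HOM were 8, 7, 6 and 3. The DN:HOM livers lay wholly outside the DN:WT range for 19 of the risen members and 4 of the fallen, against 17.7% and 15.8% of all genes. In KO:HOM only Ccl5, Ccr3 and Cxcl16 did so, against 2.18% of all genes. With all 48 livers the counts were 15 higher and 5 lower in DN:HOM (48% of all genes called, 23% higher and 25% lower) and 19 higher and 1 lower in KO:HOM (12.9%, 8.79% higher and 4.12% lower). Effects below are log2 fold changes with their SE and adjusted p from the same fit.

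In both homozygous groups 19 members rose and Ccl24 fell; 4 rose in DN:HOM alone (Ccl6, Ccl9, Ccl21a, Cxcr2), 4 fell in DN:HOM alone (Ccl25, Ccl27a, Cxcl11, Cxcl13) and 5 rose in KO:HOM alone (Ccl5, Ccr9, Cxcl9, Cxcl10, Cxcr3). Being called in a single line does not show a difference between lines. The test of that difference called 9 of the 34 tested members, 4 with the higher signed log2 change in the knock-in (Ccl9, Ccl21a, Cxcl14, Cxcl16) and 5 with the higher one in the knockout (Ccl25, Ccr3, Cxcl9, Cxcl11, Cxcr3, of which Ccl25 and Cxcl11 fell in the knock-in), where 34.7% of all genes were called, 16.5% higher and 18.3% lower in the knock-in. With all 48 livers 4 of these 9 remained, namely Ccl25, Ccr3, Cxcl9 and Cxcl11 (10.5% of all genes). The lines were bred at different institutes, so line and site cannot be told apart.

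**Figure D1:**
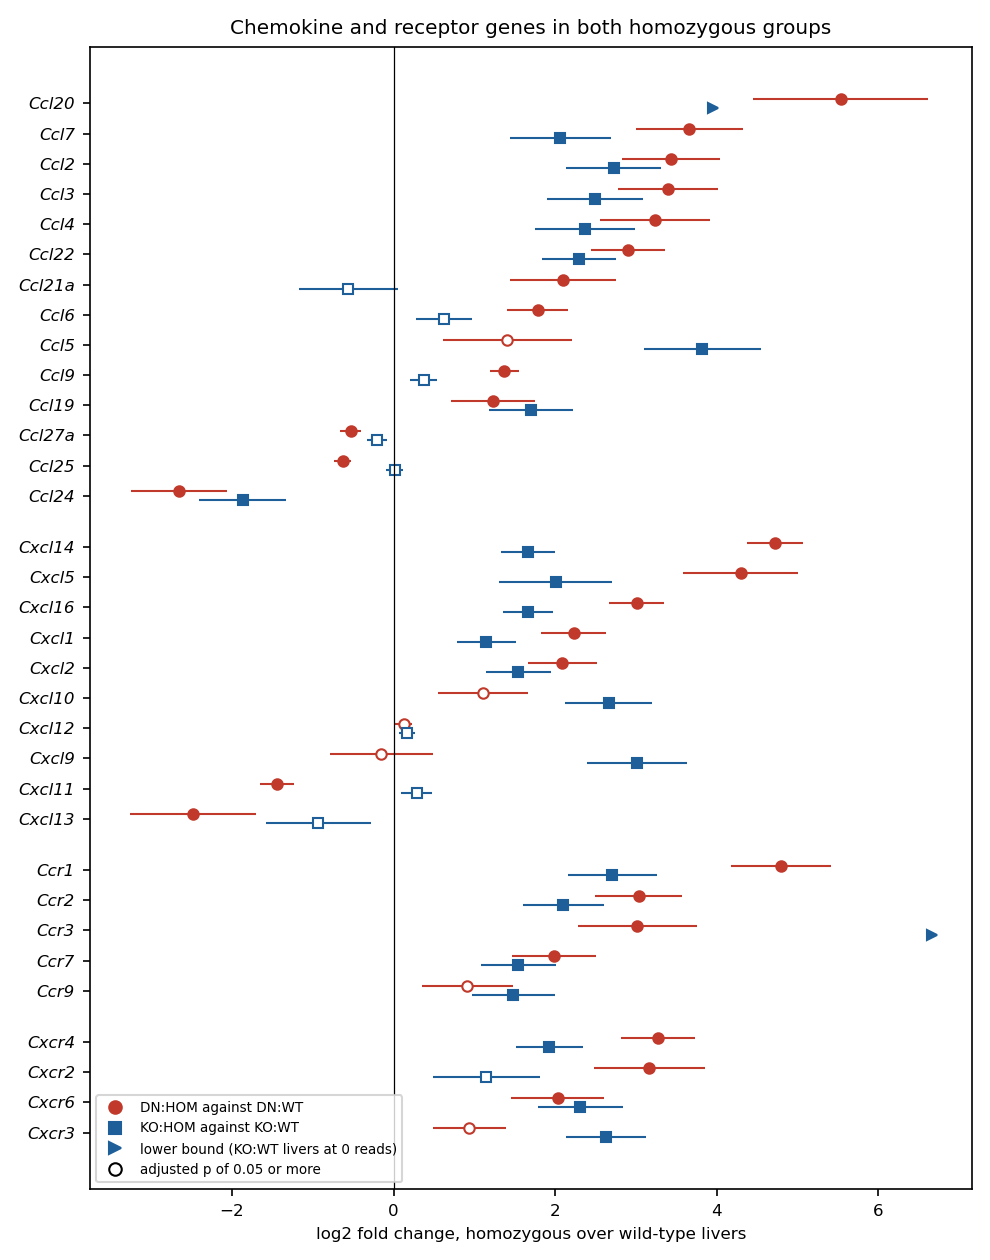
Log2 fold change of 33 of the 34 tested members in homozygous over wild-type livers, with its SE as a bar, in the knock-in (circles, 7 against 7 livers) and the knockout (squares, 8 against 8). Filled symbols are members with an adjusted p under 0.05, and right-pointing triangles are lower bounds for Ccl20 and Ccr3, which had 0 reads in KO:WT. Most symbols lie right of 0 in both lines. Of the members whose difference between lines passed the test, Cxcl9 and Cxcr3 are further right in the knockout and Cxcl14 and Cxcl16 in the knock-in, and with all 48 livers only that of Cxcl9 among these 4 passed.

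The monocyte ligands Ccl2 and Ccl7 and their receptor Ccr2 rose in both homozygous groups. Ccl2, the main monocyte attractant, ran at 0.337 to 4.4 CPM (median 1.04) in DN:WT and 6.66 to 34.4 CPM (median 14.1) in DN:HOM, with no overlap. In the knockout it ran at 0.287 to 2.49 CPM (median 0.728) in KO:WT and 1.23 to 13.4 CPM (median 6.19) in KO:HOM, where the ranges overlapped. The log2 fold changes were 3.44 ± 0.61 (SE, adjusted p = 4.7e-06) in DN:HOM and 2.72 ± 0.59 (SE, adjusted p = 0.0007) in KO:HOM. Ccr2, its receptor on inflammatory monocytes, reached 20.5 to 24.6 CPM (median 22.8) in DN:HOM from 0.857 to 5.87 CPM (median 2.85) in DN:WT, a rise of 3.03 ± 0.54 (SE, adjusted p = 5.05e-06) on the log2 scale. The 7 DN:HOM livers were within a narrow band for Ccr2, at 22.6 ± 1.62 CPM (SD, n = 7), whereas the KO:HOM livers spread over 1.89 to 25.3 CPM (median 9.62) and stood 2.10 ± 0.50 (SE, adjusted p = 0.00205) above KO:WT. Ccl7, another Ccr2 ligand, ran at 0 to 0.354 CPM (median 0.136) in DN:WT and 1.28 to 2.89 CPM (median 2.56) in DN:HOM. Its log2 fold change was 3.66 ± 0.66 (SE, adjusted p = 7.25e-06) there and 2.06 ± 0.63 (SE, adjusted p = 0.0151) in KO:HOM, the latter not kept with all 48 livers (adjusted p = 0.0604).

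Ccr1, a receptor of the inflammatory ligands Ccl3 and Ccl5 carried by monocytes and neutrophils, had the largest log2 change of any receptor in DN:HOM at 4.79 ± 0.62 (SE, adjusted p = 8.47e-09). Its reads went from 0 to 0.601 CPM (median 0.074) in DN:WT, with some livers at 0, to 4.04 to 5.94 CPM (median 5.07). In KO:HOM it reached 0.494 to 3.24 CPM (median 2.03), a log2 change of 2.71 ± 0.55 (SE, adjusted p = 0.000335). The difference between lines did not pass the test (2.09 ± 0.88, SE, adjusted p = 0.0604) and stood at -0.59 with all 48 livers. Ccl3 rose by 3.40 ± 0.62 (SE, adjusted p = 7.76e-06) in DN:HOM and Ccl4, its close relative, by 3.24 ± 0.68 (SE, adjusted p = 7.06e-05). The Ccl4 call in DN:HOM did not hold with all 48 livers (adjusted p = 0.0553). In KO:HOM, Ccl3 rose by 2.49 ± 0.59 (SE, adjusted p = 0.00188) and Ccl4 by 2.37 ± 0.62 (SE, adjusted p = 0.00494). Neither ligand passed 3.03 CPM in any DN:HOM liver.

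Ccl6 and Ccl9, rodent Ccr1 ligands made by myeloid cells, were read in every liver and rose in the knock-in. Ccl9 ran at 21.7 to 40.2 CPM (median 28.1) in DN:WT and 50.9 to 82.6 CPM (median 75.8) in DN:HOM, a change of 1.37 ± 0.18 (SE, adjusted p = 1.13e-08). KO:HOM livers held 43.1 to 69.2 CPM (median 52.6) against 26.9 to 73.4 CPM (median 37.1) in KO:WT, which did not pass the test (0.37 ± 0.16, SE, adjusted p = 0.109). The knock-in effect exceeded that of the knockout by 0.997 ± 0.24 (SE, adjusted p = 0.00111), not kept with all 48 livers (adjusted p = 0.193). Ccl9 was also the only member called between the wild-type groups, at -0.54 ± 0.17 (SE, adjusted p = 0.0343) in DN:WT relative to KO:WT, where 12% of all genes were called, 6.47% lower, and that call was absent with all 48, where Cxcl14 was called instead (2.21, adjusted p = 0.0117; 12.7% of all genes). Ccl6 changed by 1.78 ± 0.38 (SE, adjusted p = 8.79e-05) in DN:HOM and 0.63 ± 0.35 (SE, adjusted p = 0.217) in KO:HOM.

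Macrophage and monocyte markers moved with this group. Of 6 listed (Cd68, Adgre1, Itgam, Lyz2, Csf1r, Ly6c2), 5 rose in DN:HOM (4 with all 48 livers) and 5 in KO:HOM (5), and their summed level went from 71.1 to 136 CPM in DN:WT to 728 to 1209 CPM in DN:HOM and from 46.8 to 149 CPM in KO:WT to 198 to 906 CPM in KO:HOM. Resident Kupffer cell markers (Clec4f, Vsig4, Timd4, Cd5l, Marco) went the other way, all 5 lower in DN:HOM, at 1.56 to 3.5 CPM against 131 to 256 CPM. In KO:HOM 3 of the 5 fell (2 with all 48 livers), with sums of 21.7 to 66.2 CPM against 74.04 to 299.7 CPM in KO:WT. Their part in the chemokine levels was not tested.

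The neutrophil axis was higher in DN:HOM, ligands and receptor alike. Cxcl1, a ligand of Cxcr2 that hepatocytes can secrete, ran at 4.38 to 17.6 CPM (median 6.85) in DN:WT and 25.7 to 77.8 CPM (median 36.8) in DN:HOM, a rise of 2.23 ± 0.40 (SE, adjusted p = 6.35e-06). Cxcl2 rose by 2.09 ± 0.43 (SE, adjusted p = 4.69e-05) and reached 1.63 to 4.29 CPM. Cxcl5 was nearly unread in DN:WT, at 0 to 0.267 CPM (median 0.074), and ran at 1.15 to 4.47 CPM (median 2.23) in DN:HOM (4.29 ± 0.71, SE, adjusted p = 1.59e-06). These are the ligands whose printed promoters hold GGGAATTTCCC. Cxcl3, whose promoter holds the same run, was too low to test, with 22 reads over the DN:HOM livers and 0 over DN:WT, at least 4.98-fold higher against a floor of 3 reads over the group. Ccl5 and Cxcl10, whose printed promoters match GGGANNTTCC, were not called in DN:HOM, and a link to these letters was not tested.

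Cxcr2, the neutrophil receptor for these ligands, had 0 to 0.337 CPM (median 0.136) in DN:WT and 0.691 to 1.84 CPM (median 1.18) in DN:HOM, with no overlap, and rose by 3.17 ± 0.68 (SE, adjusted p = 0.000104). In KO:HOM the ligands rose as well, Cxcl1 by 1.15 ± 0.37 (SE, adjusted p = 0.0222), Cxcl2 by 1.54 ± 0.40 (SE, adjusted p = 0.00464) and Cxcl5 by 2.01 ± 0.70 (SE, adjusted p = 0.0364), and Cxcr2 did not pass the test (1.14 ± 0.66, SE, adjusted p = 0.238). The test of the difference between lines gave the 4 genes an adjusted p of 0.104 or more. In the fit of all 48 livers that difference stood at -0.47 for Cxcl5, and the DN:HOM calls of Cxcl1, Cxcl5 and Cxcr2 were lost (adjusted p = 0.209, 0.0754 and 0.0762), as were the KO:HOM calls of Cxcl1 and Cxcl5 (adjusted p = 0.136 and 0.162). Neutrophil markers moved alongside: all 4 tested of 5 listed rose in DN:HOM (S100a8, S100a9, Retnlg, Mmp8), with sums of 1.04 to 3.003 CPM in DN:WT and 21.99 to 67.5 CPM in DN:HOM. KO:HOM sums were 0.945 to 8.07 CPM, with S100a8 and S100a9 called, against 0 to 3.43 CPM in KO:WT, and both calls were lost with all 48 livers (adjusted p = 0.0522 and 0.235). The defining marker Ly6g was below the filter, and the part of these cells was not tested.

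Cxcr4, the receptor for Cxcl12 on most leukocytes, rose in both lines although its ligand did not pass the test. It ran at 0.607 to 1.93 CPM (median 0.928) in DN:WT and 7.69 to 13.2 CPM (median 10.1) in DN:HOM (3.27 ± 0.45, SE, adjusted p = 4.49e-08), and at 0.862 to 2.15 CPM (median 1.16) in KO:WT and 1.98 to 8.14 CPM (median 4.42) in KO:HOM (1.93 ± 0.42, SE, adjusted p = 0.000677). Cxcl12 had medians of 256 CPM in DN:WT, 293 in DN:HOM, 299 in KO:WT and 347 in KO:HOM. Its log2 changes were 0.12 ± 0.11 (SE, adjusted p = 0.325) and 0.17 ± 0.10 (SE, adjusted p = 0.248).

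Cxcl14 had the smallest adjusted p of any member in DN:HOM. This chemokine, made by epithelia and stroma, ran at 0.283 to 2.21 CPM (median 1.48) in DN:WT and 24.4 to 52.2 CPM (median 38.8) in DN:HOM, a log2 change of 4.72 ± 0.35 (SE, adjusted p = 3.66e-15) with no overlap. In KO:HOM it reached 0.19 to 6.72 CPM (median 3.67) against 0.488 to 1.82 CPM (median 1.15), 1.67 ± 0.33 (SE, adjusted p = 0.000286). The knock-in effect was larger by 3.06 ± 0.48 (SE, adjusted p = 2.51e-06). With all 48 livers the knock-in change was 2.62 (adjusted p = 0.000247) and neither the knockout change nor the difference between lines was called (adjusted p = 0.0677 and 0.465). The library labelled DN:WT animal 10 held 30.8 CPM and the library labelled DN:HOM animal 12 held 1.68. Cholangiocyte markers (Krt19, Krt7, Epcam, Sox9) also rose in DN:HOM, 4 of 4, from sums of 6.54 to 10.2 CPM to 46.999 to 62.7 CPM. In KO:HOM the 4 had an adjusted p of 0.481 or more, and their part in Cxcl14 was not tested.

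**Figure D2:**
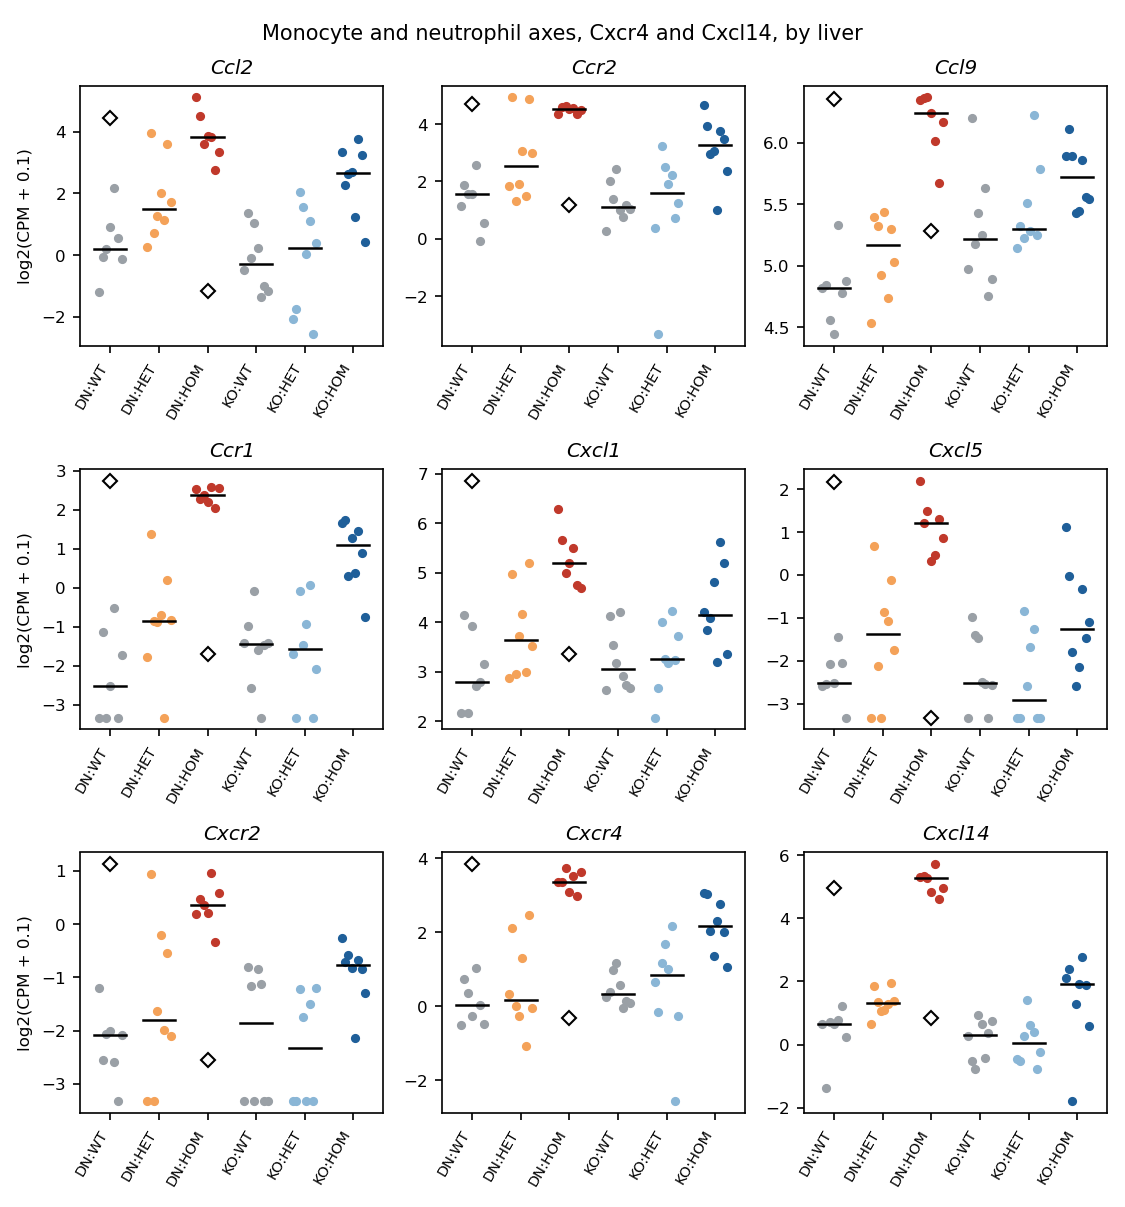
Level of 9 members in each liver as log2(CPM + 0.1), with points for livers, bars for the median of each group and open diamonds for the library labelled DN:WT animal 10 and the library labelled DN:HOM animal 12, which the medians leave out. The DN:HOM livers sit above all DN:WT livers in every panel, the open diamonds aside, and each diamond lies nearer the group opposite to its label.

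Cxcl9 and Cxcl10, ligands that draw activated T cells, rose in KO:HOM. Cxcl9, which interferon-γ induces in macrophages and endothelium, ran at 12.8 to 32.8 CPM (median 18.7) in DN:WT and 7.25 to 29.5 CPM (median 15.2) in DN:HOM, overlapping, with a log2 change of -0.16 ± 0.64 (SE, adjusted p = 0.849). In the knockout it went from 7.22 to 65.5 CPM (median 13.96) in KO:WT to 14.4 to 257 CPM (median 165) in KO:HOM (3.01 ± 0.62, SE, adjusted p = 0.000408). The knock-in minus knockout difference was -3.17 ± 0.88 (SE, adjusted p = 0.0041), and it held with all 48 livers (adjusted p = 0.0177). The KO:HOM livers were spread, since 7 of the 8 held 68.6 to 257 CPM and animal 22 held 14.4.

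Cxcl10, the second Cxcr3 ligand, had medians of 5.04 CPM in DN:WT and 11.2 in DN:HOM (1.11 ± 0.56, SE, adjusted p = 0.0841) but 4.06 in KO:WT and 28.1 in KO:HOM (2.66 ± 0.53, SE, adjusted p = 0.0003). Its difference between lines, -1.56 ± 0.76 (SE, adjusted p = 0.108), did not pass the test. Cxcr3, the receptor of both on activated T cells, ran at 0 to 0.344 CPM (median 0.101) in KO:WT and 0.315 to 2.09 CPM (median 0.977) in KO:HOM, a rise of 2.63 ± 0.49 (SE, adjusted p = 0.000127). In DN:HOM it ran at 0.543 to 0.935 CPM (median 0.801) and its change was 0.94 ± 0.45 (SE, adjusted p = 0.069). The lines differed by -1.69 ± 0.68 (SE, adjusted p = 0.0486), a call lost with all 48 livers (adjusted p = 0.066).

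Cxcl11, the remaining ligand of Cxcr3, fell in the knock-in. It ran at 7.35 to 13.7 CPM (median 8.38) in DN:WT and 1.94 to 5.47 CPM (median 3.26) in DN:HOM, with no overlap, a change of -1.45 ± 0.21 (SE, adjusted p = 1.25e-07). In KO:HOM it ran at 5.54 to 14.9 CPM (median 6.38) (0.28 ± 0.19, SE, adjusted p = 0.329), and the lines differed by -1.73 ± 0.29 (SE, adjusted p = 6.16e-06). The reads of Cxcl11, Cxcl10 and Cxcl16 summed to less when both strands were counted than on the coding strand alone.

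Ccl5, made by activated T cells, rose in KO:HOM. It ran at 0.344 to 2.22 CPM (median 0.998) in KO:WT and 2.9 to 50.3 CPM (median 7.22) in KO:HOM, where the groups did not overlap (3.82 ± 0.72, SE, adjusted p = 0.00014). DN:HOM livers ran at 1.82 to 2.85 CPM (median 2.53), above all DN:WT livers at 0.607 to 1.6 CPM (median 0.785), yet the change of 1.41 ± 0.79 (SE, adjusted p = 0.124) did not pass the test. The difference between lines was -2.41 ± 1.08 (SE, adjusted p = 0.0789). Its promoter and that of Cxcl10 are printed above, and GAAANNGAAA stands in the latter alone.

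Cxcl16 and Cxcr6, a membrane-bound ligand and its receptor on T and natural killer cells, rose in both lines. Cxcl16 ran at 4.43 to 8.07 CPM (median 5.94) in DN:WT, 36.7 to 62.9 CPM (median 48.97) in DN:HOM, 5.001 to 7.94 CPM (median 6.38) in KO:WT and 12.5 to 40.04 CPM (median 16.8) in KO:HOM, with no overlap in either line. The log2 changes were 3.01 ± 0.34 (SE, adjusted p = 2.96e-10) and 1.67 ± 0.31 (SE, adjusted p = 0.000112), and the knock-in exceeded the knockout by 1.34 ± 0.44 (SE, adjusted p = 0.0159), which was not kept with all 48 livers (adjusted p = 0.853). Cxcr6 rose by 2.03 ± 0.58 (SE, adjusted p = 0.00259) in DN:HOM, lost with all 48 (adjusted p = 0.0508), and by 2.31 ± 0.52 (SE, adjusted p = 0.00113) in KO:HOM, from 0 to 0.942 CPM (median 0.212) to 0.57 to 2.02 CPM (median 1.45).

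T cell markers (Cd3e, Cd3g, Cd3d, Trac, Cd8a, Cd4) moved with these genes: 6 of 6 rose in KO:HOM and 4 of 6 in DN:HOM, and with all 48 livers 6 and 1 did. Their sums were 2.06 to 5.58 CPM in KO:WT and 6.17 to 24.9 CPM in KO:HOM, and 2.16 to 4.14 CPM in DN:WT and 4.24 to 6.91 CPM in DN:HOM. Dendritic cell markers were called higher for 4 of 5 in KO:HOM (3 with all 48 livers) and 3 of 5 in DN:HOM (3). Natural killer cell markers were sparse: 2 of 4 were tested, with 1 call (Ncr1, below the filter in the fit of all 48) in DN:HOM and 0 in KO:HOM by edgeR, where the adjusted p of Ncr1 and Gzma was 0.144 and 0.0554. The part of these cells in the ligand levels was not tested. Among further lists, stellate cell markers were called higher for 4 of 5 in KO:HOM and 3 of 5 in DN:HOM (1 and 2 with all 48 livers). Endothelial markers were called higher for 1 of 5 in each (with all 48, 1 in KO:HOM and 0 in DN:HOM by edgeR, adjusted p = 0.103 for the one lost, Lyve1), with 3 lower in DN:HOM, and of 4 platelet markers Pf4 alone was called, higher in both.

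**Figure D3:**
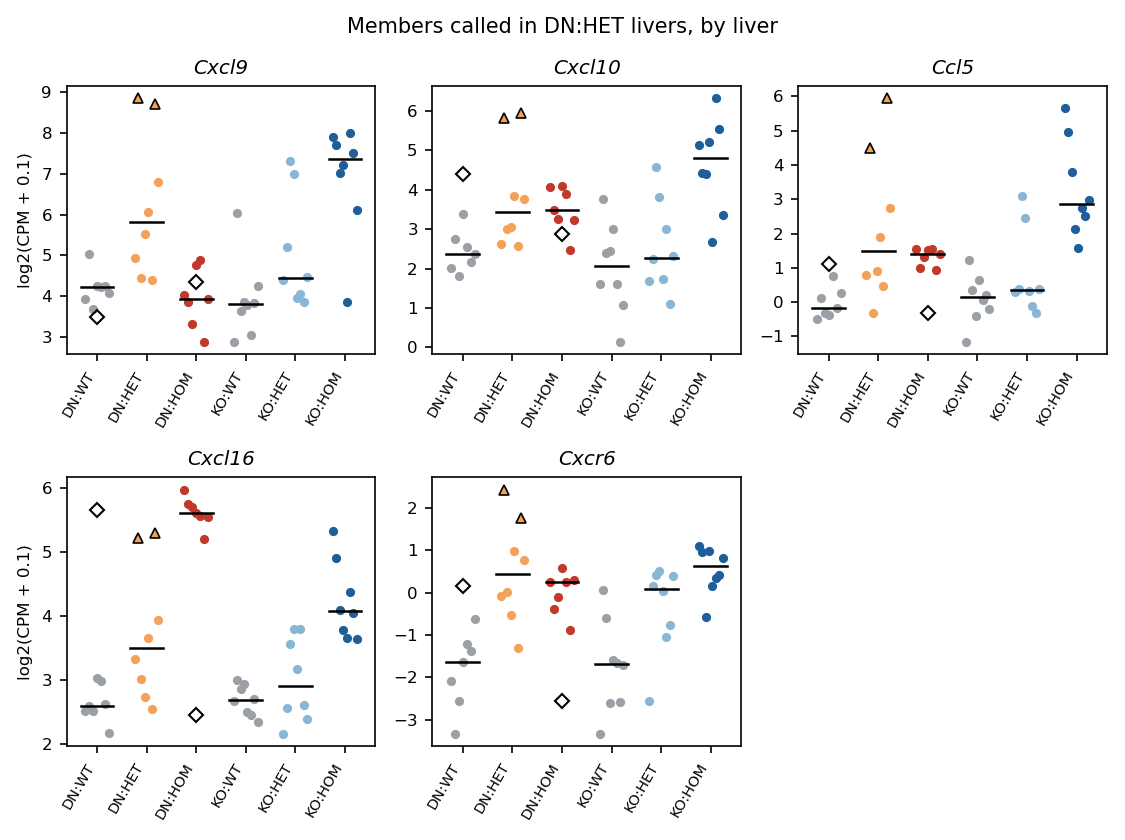
Level of 5 members linked to T cells in each liver as log2(CPM + 0.1), with points for livers, bars for group medians, triangles for DN:HET animals 4 and 22 and open diamonds for the library labelled DN:WT animal 10 and the library labelled DN:HOM animal 12. Cxcl9, Cxcl10 and Ccl5 have higher medians in KO:HOM than in DN:HOM, and the triangles are the highest DN:HET points in all 5 panels.

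With a single knock-in allele, in DN:HET against DN:WT, 8 members rose, among them Ccl5, Ccr2, Ccr7, Cxcl9, Cxcl10, Cxcl16 and Cxcr6, and none fell, where 2.3% of all genes were called, 2.23% higher. These comparisons share the DN:WT livers with those of DN:HOM. Cxcl9 ran at 20.8 to 462 CPM (median 56.1) in DN:HET and changed by 2.95 ± 0.65 (SE, adjusted p = 0.0137). Ccl5 changed by 3.75 ± 0.77 (SE, adjusted p = 0.00932), Cxcr6 by 2.97 ± 0.56 (SE, adjusted p = 0.00498), Ccr2 by 1.99 ± 0.52 (SE, adjusted p = 0.0296) and Cxcl10 by 1.96 ± 0.55 (SE, adjusted p = 0.0438). For all 8 the DN:HET livers overlapped DN:WT.

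In most of these members DN:HET animals 4 and 22 stood above the rest. Cxcl9 stood at 462 and 422 CPM in animals 4 and 22, against 20.8 to 111 CPM in the other 6 DN:HET livers. Cxcl10 stood at 56.6 and 62.3 CPM in animals 4 and 22, against 5.81 to 14.3 CPM in the other 6. Ccr2 stood at 30.5 and 29.2 CPM in animals 4 and 22, against 2.38 to 8.33 CPM in the other 6. Both animals were the highest of their group for 7 of the 8 called members (all but Ccr7), and for 24 of the 34 tested members (70.6%) against 14.2% of all tested genes. Animals 4 and 22 were picked from the member values, so that share tests nothing. Without them, a choice made after the values were seen, 0 members were called by edgeR in DN:HET against DN:WT, 8 of 34 had an unadjusted p under 0.05 (4.03% of all genes), and DESeq2 over the 46 livers had called 12 (3.93%). The log2 changes then were 1.37 ± 0.55 for Cxcl9, 1.5 ± 0.62 for Ccl5, 0.77 ± 0.46 for Ccr2, 0.72 ± 0.50 for Cxcl10, 0.64 ± 0.26 for Cxcl16, 1.58 ± 0.55 for Ccr7 and 2.12 ± 0.54 for Cxcr6 (each ± SE), where those with both animals were 1.44 for Cxcl16, 1.91 for Ccr7 and 2.97 for Cxcr6. With all 48 livers 3 were called (Ccl5, Cxcl9, Cxcr6), where 0.25% of all genes were. T cell marker sums ran to 27.4 CPM and macrophage and monocyte sums to 791 CPM in DN:HET, against highest sums of 4.14 and 136 in DN:WT.

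DN:HET and DN:HOM differed from each other for 23 members, 16 higher and 7 lower in DN:HOM, where 53.9% of all genes were called, 26.1% higher and 27.8% lower. Cxcl14 (3.86 ± 0.31, SE, adjusted p = 4.53e-14), Ccr1 (2.84 ± 0.49, SE, adjusted p = 3.57e-06), Cxcr4 (2.37 ± 0.40, SE, adjusted p = 3.09e-06) and Ccl9 (1.09 ± 0.17, SE, adjusted p = 6.62e-07) were higher in DN:HOM with no overlap. Of the T cell ligands, Cxcl9 and Ccl5 were lower in DN:HOM than in DN:HET, by -3.10 ± 0.65 (SE, adjusted p = 9.56e-05) and -2.34 ± 0.67 (SE, adjusted p = 0.00312). Cxcl10 was not called (-0.85, adjusted p = 0.161). T cell markers were lower for 3 of 6 and higher for 0, and their part in these levels was not tested. Without DN:HET animals 4 and 22 the Ccl5 call was lost (adjusted p = 0.886) and that of Cxcl9 was kept. With all 48 livers 8 members were higher and 7 lower, where 46.4% of all genes were called.

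In KO:HET against KO:WT a single member, Ccr3, was called, where 0.0191% of all genes were, 0.0127% higher. KO:HOM differed from KO:HET for 18 members, 17 higher and Cxcl13 lower (-1.99 ± 0.62, SE, adjusted p = 0.0296), where 10.6% of all genes were called, 7.24% higher and 3.34% lower, and with all 48 livers for 5, where 4.72% were. The 18 included Ccl5 (2.58 ± 0.66, SE, adjusted p = 0.00838), Cxcl2 (1.89 ± 0.42, SE, adjusted p = 0.00295) and Ccr1 (2.37 ± 0.54, SE, adjusted p = 0.00367), the last not called with all 48 livers (adjusted p = 0.0633).

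Ccr3, the eotaxin receptor of eosinophils, had the smallest adjusted p of any member in KO:HOM. It had 0 reads over the 8 KO:WT livers, 49 reads over KO:HET with 7 of 8 livers above 0, and 308 reads over KO:HOM with all 8 above 0. KO:HOM livers ran at 1.23 to 5.21 CPM (median 2.16) and KO:HET at 0 to 0.876 CPM (median 0.418). The level was at least 101-fold higher in KO:HOM (adjusted p = 1.8e-10) and at least 17.3-fold higher in KO:HET (adjusted p = 0.000907) than a floor of 3 reads over KO:WT, and KO:HOM exceeded KO:HET by 2.55 ± 0.40 (SE, adjusted p = 0.000139) with no overlap. The KO:HET call was lost when the knockout livers were fitted alone.

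In the knock-in, Ccr3 reads were few: 3 over DN:WT, 20 over DN:HET and 44 over DN:HOM. The DN:HOM to DN:WT ratio was 9.96 (3.19 to 50.1), with the 95% exact binomial interval of the read counts, which covers counting error only (adjusted p = 0.000612). That call was lost when the knock-in livers were fitted alone. Of 4 eosinophil markers, a list added after the values were seen, Siglecf passed the filter and was called higher in DN:HOM, at 0.754 to 2.44 CPM against 0 to 0.209 CPM, and in KO:HOM, at 0 to 0.795 CPM against 0 to 0.153 CPM, the latter call lost with all 48 livers (adjusted p = 0.106). Epx was at 0 in every knockout liver, and Prg2 and Il5ra had at most 12 reads in any group. The summed list ran at 0 to 0.279 CPM in KO:WT, 0 to 0.89 CPM in KO:HOM, 0 to 0.209 CPM in DN:WT and 0.754 to 2.44 CPM in DN:HOM, and its part in Ccr3 was not tested. Ccl11, a ligand of Ccr3, was too low to test, with 3 reads over DN:WT and 59 over DN:HOM, a ratio of 13.4 (4.35 to 66.6), and 4 and 8 over KO:WT and KO:HOM.

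Ccl24 was the only member that fell in both homozygous groups. This eosinophil attractant, made by macrophages, ran at 0.778 to 3.28 CPM (median 1.18) in DN:WT and 0.0471 to 0.497 CPM (median 0.226) in DN:HOM, with no overlap (-2.65 ± 0.59, SE, adjusted p = 0.000163). In the knockout it went from 0.144 to 3.83 CPM (median 1.62) in KO:WT to 0.185 to 0.953 CPM (median 0.379) in KO:HOM, overlapping (-1.87 ± 0.54, SE, adjusted p = 0.0101). It was not called in DN:HET, at 0.528 to 7.26 CPM (median 1.35). The summed Kupffer cell markers given above were lower in the same groups, and their part in Ccl24 was not tested.

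Ccl25, a ligand of Ccr9 on gut-homing lymphocytes, and Ccl27a, a ligand of Ccr10, fell by small amounts in DN:HOM. Ccl25 ran at 9.61 to 13.1 CPM (median 11.9) in DN:WT and 6.58 to 8.86 CPM (median 7.32) in DN:HOM (-0.63 ± 0.11, SE, adjusted p = 2.81e-06) and stood at 0.01 ± 0.10 (SE, adjusted p = 0.956) in KO:HOM, and the knock-in minus knockout difference was -0.64 ± 0.15 (SE, adjusted p = 0.000662). Ccr9 rose in KO:HOM (1.48 ± 0.52, SE, adjusted p = 0.0364), a call lost with all 48 livers (adjusted p = 0.0606), and its exons overlap those of Gm17200 on the same strand. Ccl27a ran at 8.65 to 13.2 CPM (median 9.68) and 6.001 to 7.87 CPM (median 7.21) (-0.53 ± 0.13, SE, adjusted p = 0.000648), and its reads may be shared with near-identical copies. Both falls depended on scaling, because with library size alone the median of all genes moved from −0.01 to 0.42 on the log2 scale in DN:HOM against DN:WT and neither was called. The Ccl25 difference between lines was not called with library size alone either. Under that scaling 28 members were higher and 3 lower in DN:HOM, where 59.1% and 11.1% of all genes were, and the difference between lines was 8 higher and 3 lower, against 37.7% and 8.5%. Hepatocyte markers fell for 5 of 5 in DN:HOM, and for 3 of 5 in KO:HOM (1 with all 48 livers), where Ccl25 and Ccl27a were not called. Their part in these levels was not tested.

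**Figure D4:**
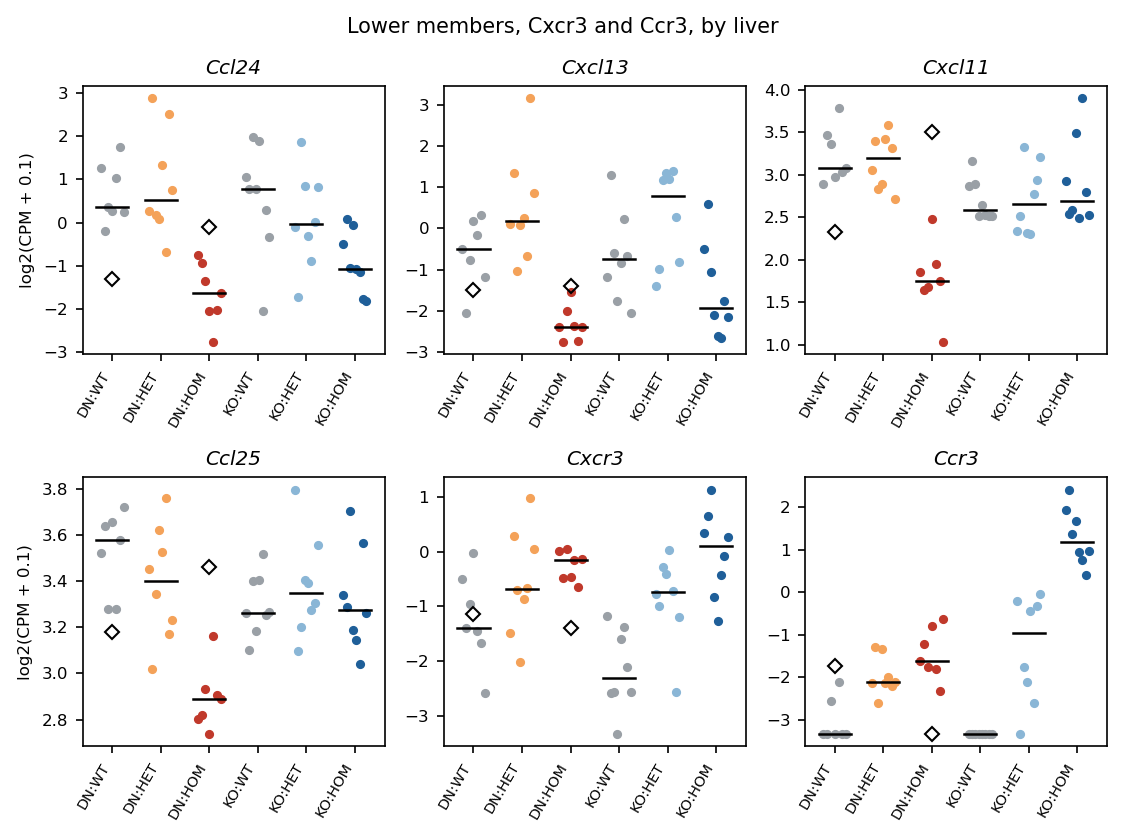
Level of Ccl24, Cxcl13, Cxcl11, Ccl25, Cxcr3 and Ccr3 in each liver as log2(CPM + 0.1), with points for livers, bars for group medians and open diamonds for the library labelled DN:WT animal 10 and the library labelled DN:HOM animal 12. The first 4 have lower medians in DN:HOM than in DN:WT, and Ccr3 is at 0 reads in all KO:WT livers and above 0 in all KO:HOM livers.

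Ligands that organise lymphoid tissue moved in different directions. Ccl19 and Ccl21a, the ligands of Ccr7 on dendritic cells and naive T cells, rose by 1.23 ± 0.52 (SE, adjusted p = 0.0408) and 2.10 ± 0.65 (SE, adjusted p = 0.0053) in DN:HOM, both lost with all 48 livers (adjusted p = 0.166 and 0.0737). In KO:HOM, Ccl19 rose by 1.70 ± 0.52 (SE, adjusted p = 0.016), whereas Ccl21a ran at 0.189 to 2.66 CPM (median 0.452) against 0.138 to 2.82 CPM (median 0.263) (-0.56 ± 0.61, SE, adjusted p = 0.574). The lines differed for Ccl21a by 2.66 ± 0.90 (SE, adjusted p = 0.018), not kept with all 48 (adjusted p = 0.17), and its close copies make its reads uncertain. Ccr7 itself rose by 1.98 ± 0.52 (SE, adjusted p = 0.00108) in DN:HOM, 1.91 ± 0.52 (SE, adjusted p = 0.0357) in DN:HET and 1.55 ± 0.46 (SE, adjusted p = 0.0133) in KO:HOM.

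Cxcl13, the B cell attractant, fell in DN:HOM to 0.0474 to 0.24 CPM (median 0.0904) from 0.141 to 1.14 CPM (median 0.607) in DN:WT (-2.49 ± 0.78, SE, adjusted p = 0.0057), with overlap. KO:HOM livers ran at 0.0585 to 1.4 CPM (median 0.163) against 0.139 to 2.35 CPM (median 0.495) (-0.93 ± 0.65, SE, adjusted p = 0.342). Its receptor Cxcr5 was below the filter, at 0.074 to 0.637 CPM (median 0.467) in DN:WT and 0.0474 to 0.226 CPM (median 0.148) in DN:HOM. Of 4 B cell markers, all tested, 1 was called lower in DN:HOM, a call lost with all 48 livers, and the median log2 change of the list was -0.82.

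Ccl22, the Ccr4 ligand of dendritic cells and macrophages, rose by 2.90 ± 0.46 (SE, adjusted p = 6.42e-07) in DN:HOM and 2.30 ± 0.46 (SE, adjusted p = 0.000301) in KO:HOM. Ccr4 itself had at most 14 reads in any group, and Ccl17, the other ligand, at most 6. Ccl20, the ligand of Ccr6, was at 0 in all but 1 of the wild-type livers and ran at 0.148 to 1.18 CPM (median 0.904) in DN:HOM and 0 to 1.14 CPM (median 0.425) in KO:HOM. With 1 read over DN:WT, its ratio was 82.8 (14.6 to 3299) by the read counts (adjusted p = 3.59e-05). In KO:HOM it was at least 15.5-fold higher than the floor over KO:WT (adjusted p = 0.00134). Ccr6 had 12 reads over DN:HOM and 13 over KO:HOM.

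The 16 members below the filter were Ccl1, Ccl8, Ccl11, Ccl12, Ccl17, Ccl27al, Ccl28, Ccr1l1, Ccr4, Ccr6, Ccr8, Ccr10, Cxcl3, Cxcl17, Cxcr1 and Cxcr5. The highest level of any of them in any of the 46 livers was 2.58 CPM. Ccl8, a monocyte attractant, held that level, with 3, 86 and 15 reads over DN:WT, DN:HET and DN:HOM and 2, 23 and 79 over KO:WT, KO:HET and KO:HOM. DN:HET animals 4 and 22 held 1.88 and 2.58 CPM of it. Ccr8, a receptor of skin-homing and regulatory T cells, had 0 reads in both wild-type groups and 14 over KO:HOM.

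Of 11 other genes of the chemokine system, 10 were tested. In DN:HOM, where 29.1% of all genes rose and 30% fell, Cx3cl1, Cx3cr1, Pf4, Ackr3 and Ccrl2 rose and Ackr4, a scavenger of Ccl19, Ccl21a and Ccl25, fell. Cx3cl1, the membrane-bound fractalkine, ran at 0.214 to 1.2 CPM (median 0.487) in DN:WT and 7.45 to 15.6 CPM (median 12.4) in DN:HOM (4.31 ± 0.35, SE, adjusted p = 3.92e-14), and its receptor Cx3cr1 rose by 3.89 ± 0.44 (SE, adjusted p = 3.56e-10). Ackr4 ran at 11.8 to 18.6 CPM (median 12.99) and 5.42 to 9.77 CPM (median 6.88) (-0.89 ± 0.14, SE, adjusted p = 7.35e-07). In KO:HOM, where 11.5% of all genes rose, 5 did so, Cx3cl1 (1.93 ± 0.32, SE, adjusted p = 2.55e-05), Cx3cr1, Pf4, Ccrl2 and Xcr1, and 0 fell by edgeR, Ackr4 standing at 0.10 ± 0.13 (SE, adjusted p = 0.634). Xcr1, on cross-presenting dendritic cells, was the only call in DN:HET (2.23% of all genes rose), lost with all 48 livers (adjusted p = 0.0589).

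Most listed genes that act on the receptor signal were higher as well. Of 19 (G-protein α subunits, arrestins, receptor kinases, phosphoinositide 3-kinase γ, Rac and its exchange factors, and the integrins that follow), 17 rose in DN:HOM, 5 in DN:HET and 15 in KO:HOM, where 29.1%, 2.23% and 11.5% of all genes did. Over all 48 livers 14 rose in DN:HOM, 13 in KO:HOM and 0 in DN:HET by edgeR, and the 5 DN:HET calls had an adjusted p of 0.159 or more there. Itgb2, the shared β chain of leukocyte integrins, rose by 2.49 ± 0.46 (SE, adjusted p = 9.37e-06) and 2.32 ± 0.43 (SE, adjusted p = 0.000108). Pik3r5 rose by 3.17 ± 0.49 (SE, adjusted p = 4.42e-07) and 2.07 ± 0.45 (SE, adjusted p = 0.000681). The widely expressed Gnai2 rose by 0.77 and 0.33, the KO:HOM call lost with all 48 livers (adjusted p = 0.0517), and Gnai3 fell by 0.17 in KO:HOM. The median of the list was 1.40 in DN:HOM and 1.47 in KO:HOM on the log2 scale, against −0.01 and −0.02 over all genes tested. The part of leukocyte content in these levels was not tested, and neither was signalling itself.

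Of 15 genes that induce chemokines, 12 were tested, and 8 rose in DN:HOM, 7 in KO:HOM and 1 (Tnf) in DN:HET, against the same shares of all genes. Over all 48 livers 4 rose in DN:HOM and 6 in KO:HOM, and the Tnf call in DN:HET was lost (adjusted p = 0.414). The NF-κB gene Relb rose by 2.71 ± 0.36 (SE, adjusted p = 2.14e-08) in DN:HOM and 1.73 ± 0.35 (SE, adjusted p = 0.00031) in KO:HOM, and Nfkb2 by 2.10 ± 0.22 (SE, adjusted p = 6.3e-11) and 0.85 ± 0.21 (SE, adjusted p = 0.00232). The cytokine Tnf rose by 2.78 and 3.33, and Il1b by 1.81 and 1.49. The Nfkb2 call in KO:HOM (adjusted p = 0.054) and the Il1b call in DN:HOM (adjusted p = 0.0631) were lost with all 48 livers. The interferon-responsive Irf1 rose in KO:HOM, by 1.53 ± 0.28 (SE, adjusted p = 0.000104), and stood at 0.23 ± 0.29 (SE, adjusted p = 0.509) in DN:HOM. Its knock-in minus knockout difference was -1.29 ± 0.40 (SE, adjusted p = 0.0108), which held with all 48 livers (adjusted p = 0.0192). Ifng was below the filter, with 1, 43 and 10 reads over DN:WT, DN:HET and DN:HOM and 3, 7 and 45 over KO:WT, KO:HET and KO:HOM. Il6 and Il17a were below it too, with Il17a at 0 in every liver.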

How the data were processed

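Per the labels, stranded poly(A) mRNA libraries were made from total RNA of liver. The authors aligned the reads and the deposited files hold raw counts of reads per gene, with the strand settings in separate columns, and the submitters' processing notes name STAR 2.5.0a and GRCm39. Column 4, whose counts exceeded those of the other strand 6.97- to 8.62-fold, was used. Reads assigned to no gene (24.0% to 35.0%) were left out of library sizes. The livers held 5332897 to 16961379 counts on genes, and low counts limit the receptors most.

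The members and lists were chosen with earlier results of these data known. edgeR 4.0.16 in R 4.3.3 (filterByExpr, TMM, a mean for each of 6 groups, quasi-likelihood F test) was fitted over 46 livers, with Benjamini-Hochberg adjustment over 15711 genes and a threshold of 0.05. SE is the absolute log2 fold change divided by the square root of F. CPM used TMM factors over all 48 livers. Each liver is an animal. The study's values deposited for 1 panel matched 22 knock-in livers by the counts of 6 genes (132 of 176 values, largest deviation 0.000476%), without the 2 left out here. Members given value by value were those called in either homozygous comparison and among the 5 largest changes of their family, with others named where a result turned on them. Results for 1 member and for some other genes are not reported here, although the counts include them. Alternatives were all 48 livers, DESeq2 1.42.0, upper-quartile scaling, no filter or a filter at a mean CPM of 1, counts over both strands, a separate fit per line, no liver under 10000000 counts, and a fold minimum of 2. Library size alone and leaving out DN:HET animals 4 and 22 were added after the values were seen. The code was tested on simulated data.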

Additional observations from a re-analysis of the deposited data

Results flagged for a closer look

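In 8 of 144 groups of livers examined for a liver far from the others (24 named members in 6 groups, by the gap to the nearest liver over the range of log2(CPM + 0.1)), a liver stood apart, where chance gives about 1 in 20. For Ccl20 these were DN:WT animal 21, highest with a gap of 1 of the range and a single read; DN:HOM animal 33, lowest (0.762; 0.148 CPM against 0.768 to 1.18); and KO:HET animal 4, highest (0.547; 0.196 CPM against 0 to 0.0634). Ccr2 was lowest in KO:HET animal 3 (0.563), at 0 CPM against 1.18 to 9.22 in the other livers of its group, and this is a liver with under 10000000 reads. Cxcl14 was lowest in DN:WT animal 5 (0.631), at 0.283 CPM against 1.09 to 2.21.

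Cxcl9 accounted for 3 of the 8. It was highest in DN:WT animal 5 (0.584), at 32.8 CPM against 12.8 to 18.9, and in KO:WT animal 5 (0.564), at 65.5 CPM against 7.22 to 18.96. It was lowest in KO:HOM animal 22 (0.541), at 14.4 CPM against 68.6 to 257, a level inside the KO:WT range.

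The homozygous effect differed between the lines for 9 members by the test of the difference, knock-in minus knockout on the log2 scale. The signed log2 change was higher in the knock-in for Cxcl14 (3.06), Ccl21a (2.66), Cxcl16 (1.34) and Ccl9 (0.997), none of which was called with all 48 livers (adjusted p = 0.465, 0.17, 0.853 and 0.193 by edgeR). It was higher in the knockout for Ccr3 (-5.33, a fitted value that depends on the prior count because KO:WT had 0 reads), Cxcl9 (-3.17), Cxcl11 (-1.73), Cxcr3 (-1.69) and Ccl25 (-0.64), where Cxcl11 and Ccl25 fell in the knock-in. Of these 5, Cxcr3 alone was lost with all 48 livers.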

How the results depend on the processing

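No paired analysis was possible because animal numbers name single mice and the groups compared within a line share none. The labels give neither litter nor cohort, so neither was fitted. With all 48 livers, members called fell to 3 in DN:HET against DN:WT, 15 in DN:HOM against DN:HET, 5 in KO:HOM against KO:HET and 4 for the difference between lines; the cause was not tested beyond the levels of the returned libraries. A mean CPM of at least 1 tested only 20 members, and left 16 calls in DN:HOM against DN:WT, 15 against DN:HET, 13 in KO:HOM against KO:WT and 11 against KO:HET, where 61.2%, 56.6%, 19.6% and 11.5% of all genes were called, and 0 in KO:HET against KO:WT (edgeR, 2 at an unadjusted p under 0.05, 5.81% of all genes). Without livers under 10000000 reads KO:HOM against KO:HET gave 11 (7.6% of all genes), with fewer livers. Each study alone gave 0 in KO:HET against KO:WT (5 unadjusted, 5.73%). It gave 18 in KO:HOM against KO:WT (16.9% of all genes), without Ccl3, Ccl7, Ccl19, Ccl20, Ccl22, Ccr9 and Cxcl5. In DN:HOM against DN:WT it gave 27 (60%), without Ccr3. A member below the filter of a single-line fit counts as not called there. Without DN:HET animals 4 and 22, DN:HET against DN:WT gave 0 (8 unadjusted, 4.03% of all genes, against 12 by DESeq2 over 46 livers, 3.93%). The single call between wild-type groups went to 0 without the filter (6 unadjusted, 15.5% of all genes), with library size alone (4, 25.5%) and at a fold of at least 2 (5, 24.9%); the cause was not tested.

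Over 24 named members, 8 comparisons and 10 settings, 1766 values were recomputed. Of these 1607 kept direction and side of the threshold, 75 fell below it (38 with all 48 livers) and 39 passed it. Another 45 turned direction (29 with all 48 livers), each with an adjusted p of 0.0604 or more in both fits. The turned values with all 48 livers were -0.92 for Ccl2, -0.91 for Ccl3, -0.83 for Ccl4, -0.0318 for Ccl7, -0.59 for Ccr1, -0.30 for Ccr2, -0.25 for Ccr7, -0.40 for Cxcl1, -0.47 for Cxcl5 and -0.20 for Cxcr4 in the difference between lines, and 1.47 for Ccl3, 1.06 for Ccl4, 0.00784 for Ccl5, 1.07 for Ccl7, 1.76 for Ccr1, 1.13 for Cxcl1, 0.89 for Cxcl16, 2.17 for Cxcl5, 0.97 for Cxcr2, 1.07 for Cxcr4 and 0.24 for Cxcr6 in DN:WT against KO:WT, and -0.0222 for Ccl9, -0.53 for Ccr1, -0.44 for Cxcl1, -1.04 for Cxcl14, -0.62 for Cxcl5 and -0.46 for Cxcr4 in DN:HET against DN:WT, and -0.0608 for Ccr7 and -0.0829 for Cxcr3 in DN:HOM against DN:HET. With library size alone they were 0.22 for Ccl20, 0.27 for Cxcl12 and 0.0364 for Cxcr6 in the difference between lines, and 0.27 for Cxcl9 in DN:HOM against DN:WT, and 0.0405 for Cxcl9 in DN:WT against KO:WT. Without DN:HET animals 4 and 22 they were 0.14 for a member not named here, 0.37 for Cxcl10 and -0.0169 for Cxcl12 in DN:HOM against DN:HET, and -0.000983 for Cxcr4 in DN:HET against DN:WT. With counts over both strands they were -0.0112 for Cxcl14 in KO:HET against KO:WT, and 0.0462 for Cxcl16 and 0.00261 for Cxcr6 in DN:WT against KO:WT, and -0.0851 for Cxcr3 in DN:HOM against DN:HET. DESeq2 gave 0.49 for Ccl20 in the difference between lines. Upper-quartile scaling gave 0.00561 for Cxcl12 in the difference between lines. Without the livers under 10000000 reads the value was 0.0504 for Cxcl5 in KO:HET against KO:WT. Low counts left 16 members untested, among them 5 of 11 CC receptors and 2 of 6 CXC receptors.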

Other observations

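Among KO:HET livers, animals 4 and 6 were both the highest of the group for 8 of the 34 tested members (Ccl2, Ccl24, Ccl5, Ccr2, Ccr9, Cxcl10, Cxcl9, Cxcr6), against 4.75% of all genes tested, a pair picked after the values were seen. Cxcl9 stood at 159.7 and 128 CPM there, where the group median was 21.5 CPM. Ccl5 stood at 8.43 and 5.32 CPM, with a group median of 1.17 CPM. No member other than Ccr3 was called in KO:HET against KO:WT by edgeR, where 5 members had an unadjusted p under 0.05 in the fits of all 48 livers and of each study alone, and by DESeq2 (4.54%, 5.73% and 6.29% of all genes). Not all of the 34 passed the filter in the fit of each study alone.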
